A study of Mus musculus with 16 samples.

Results

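Transcripts of 10 enzymes of mitochondrial fatty acid beta-oxidation were examined in muscle and bone of aged mice treated with an inhibitor of the aryl hydrocarbon receptor (AhR). The genes, chosen by name, were Acadm, Acadl, Acadvl, Hadha, Hadhb, Hadh, Acaa2, Etfa, Etfb and Etfdh, and all 10 were present among the 21011 genes of the muscle table and among the 38933 genes of the bone table. The series holds 16 RNA-seq libraries, 1 per mouse and tissue, from tibialis anterior (TA) muscle and from cortical bone shafts, with 4 libraries per treatment in each tissue. All mice were female C57BL/6, aged 18 months in the labels and at the start of treatment, and all were gavaged on 5 days per week for 8 weeks. BAY mice received 30 mg/kg of the AhR antagonist BAY2416964, and VEH mice received its vehicle of ethanol, Solutol and water. The shafts had been digested with collagenase after marrow stromal cells were taken, and markers of other tissues in these libraries are given with the bone results. The question put to the data was whether the levels of these transcripts differed between BAY and VEH mice in muscle, with and without 1 VEH library that stood apart, and in bone.

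Beta-oxidation is the route by which mitochondria shorten an acyl-CoA by a pair of carbons per turn, yielding acetyl-CoA for the tricarboxylic acid cycle and reduced cofactors for the respiratory chain. Each turn is a sequence of dehydrogenation, hydration, a further dehydrogenation and thiolytic cleavage, and the electrons of the opening step reach ubiquinone through the electron transfer flavoprotein (ETF) and its own dehydrogenase. Skeletal muscle relies on this pathway at rest and in fasting, and oxidative fibers hold more of its enzymes than glycolytic fibers. Its genes are known targets of the peroxisome proliferator-activated receptors (PPARs) and the estrogen-related receptors, nuclear receptors that bind AGGTCA half-sites singly or in tandem, whereas AhR with its partner ARNT binds a core of GCGTG.

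The windows from 250 bases before to 50 after each annotated start were read from GRCm39, the build of the files (also called mm39), for 9 of the 10 genes, leaving out Acaa2. Hadha and Hadhb, which encode the 2 subunits of a single complex, lie head to head on chromosome 5 with their starts 65 bases apart. Their windows are shown because this pair shares 1 promoter region and both genes took part in the common pattern described below. Capitals mark AGGTCA and GCGTG or their reverse complements. The Hadha window is chr5:30360132-30360431 on the minus strand and the Hadhb window is chr5:30359996-30360295 on the plus strand.
Hadha: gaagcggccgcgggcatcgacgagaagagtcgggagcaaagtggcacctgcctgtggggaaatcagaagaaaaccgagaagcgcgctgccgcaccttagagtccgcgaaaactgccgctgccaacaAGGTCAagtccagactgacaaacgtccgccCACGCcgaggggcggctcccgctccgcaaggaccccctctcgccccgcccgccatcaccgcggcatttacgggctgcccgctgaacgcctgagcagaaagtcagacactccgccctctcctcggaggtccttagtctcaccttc
Hadhb: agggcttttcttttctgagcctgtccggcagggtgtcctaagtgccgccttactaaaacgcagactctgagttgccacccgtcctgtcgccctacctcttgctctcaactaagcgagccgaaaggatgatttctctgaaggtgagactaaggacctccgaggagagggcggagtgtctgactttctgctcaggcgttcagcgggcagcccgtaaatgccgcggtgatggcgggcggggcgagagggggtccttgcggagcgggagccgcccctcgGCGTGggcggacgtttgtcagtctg
Counting the annotated start as base 0, AGGTCA stood at bases -124 to -119 of Hadha, and GCGTG stood at -94 to -90 of Hadha on the opposite strand and at 25 to 29 of Hadhb. The last 2 are the same genomic site read from either gene. On either strand, AGGTCA was present in 2 of the 9 windows (Acadvl and Hadha) and in 15.1% of 21093 protein-coding promoters of the same length, and GCGTG was present in 6 of 9 against 37.1%. The 6 count the site shared by Hadha and Hadhb once for each gene. The tandem direct repeat that PPARs bind, a pair of AGGTCA sites separated by 1 base, was found in 0 of the 9 windows and in 0.0474% of promoters, and TCAAGGTCA, the extended estrogen-related receptor site, in 0 of 9 and 0.479%. Both longer motifs contain AGGTCA. These are matches of letters within 300 bases, and their absence says nothing of sites elsewhere.

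Levels are given as CPM, counts scaled to a common library total, obtained by undoing the log2 and the small offset of the deposited values. The reads counted on genes, recovered from the steps between low values, numbered 6131921 to 9262387 per muscle library and 930306 to 6951916 per bone library. A member had 84 to 1906 reads per muscle library and 1 to 277 per bone library. Fold changes are differences of mean log2 values, BAY minus VEH, tested with limma across all genes of a tissue. In muscle, 9.79% of all genes had an unadjusted P under 0.05, 3.07% of all genes being lower and 6.71% higher in BAY mice, and 0.0% passed an adjusted P of 0.05. The median log2 fold change of all muscle genes was 0.06. The header of the muscle VEH replicate 3 column carries the word replacement, which the sources used here do not explain, and the muscle fold changes of the enzymes are given with and without that library. In bulk tissue, fewer cells of a type and less RNA per cell cannot be told apart.

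The 3 chain-length acyl-CoA dehydrogenases catalyse the opening step. Acadm, the medium-chain enzyme (ENSMUSG00000062908, chromosome 3, 153627994 to 153650269), measured 92.4, 90.5, 187 and 95.8 CPM in VEH replicates 1 to 4 and 90.5, 92.8, 99.1 and 90.2 CPM in BAY replicates 1 to 4. VEH replicate 3 stood 2.03-fold above the median of the other 7 libraries, and those 7 lay within 0.14 of each other on the log2 scale. The log2 fold change was -0.25 (SE 0.20, limma adjusted P = 0.69) with all libraries and 0.00 (SE 0.09, 95% interval -0.20 to 0.21) without VEH replicate 3. Acadl, the long-chain enzyme (ENSMUSG00000026003, chromosome 1, 66869998 to 66902436), measured 87.5, 68.5, 143 and 76.2 CPM in VEH and 74.9, 80.2, 85.9 and 62.0 CPM in BAY mice. Its log2 fold change moved from -0.26 (SE 0.20) to -0.03 (SE 0.13) when that library was left out. Acadvl, the very-long-chain enzyme of the inner membrane (ENSMUSG00000018574, chromosome 11, 69901009 to 69906237), measured 76.7, 83.4, 117 and 78.9 CPM in VEH and 83.3, 89.2, 82.4 and 82.4 CPM in BAY mice. VEH replicate 3 stood 1.42-fold above the median of the other 7, and the sign of the log2 fold change turned from -0.06 (SE 0.14) to 0.08 (SE 0.10, 95% interval -0.13 to 0.29).

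Hadha and Hadhb encode the alpha and beta subunits of the mitochondrial trifunctional protein, which carries the hydratase, hydroxyacyl-CoA dehydrogenase and thiolase steps for long chains. Hadha (ENSMUSG00000025745, chromosome 5, 30323302 to 30360160) measured 132, 126, 206 and 133 CPM in VEH and 127, 121, 142 and 111 CPM in BAY mice. Hadhb (ENSMUSG00000059447, chromosome 5, 30360246 to 30389591) measured 16.1, 16.7, 33.9 and 18.0 CPM in VEH and 19.5, 17.4, 17.8 and 11.8 CPM in BAY mice. For both subunits VEH replicate 3 was the highest library and BAY replicate 4 the lowest, and the remaining levels of the groups interleaved. Log2 fold changes were -0.23 (SE 0.16, limma adjusted P = 0.659) for Hadha and -0.30 (SE 0.23, limma adjusted P = 0.682) for Hadhb, and -0.07 (SE 0.11) and -0.05 (SE 0.17) without VEH replicate 3. The Hadhb level is uncertain because the pseudogene Hadhb-ps has a row of its own and held 1.31 to 2.5 times as many CPM as Hadhb in the same libraries, so reads may be divided between the rows. The likeness of the sequences was not examined. Hadhb-ps measured 40.3, 39.5, 61.5 and 28.7 CPM in VEH and 25.5, 29.6, 30.2 and 15.4 CPM in BAY mice, a log2 fold change of -0.75 (SE 0.24, limma adjusted P = 0.344), or -0.55 (SE 0.22) without VEH replicate 3. When both rows were summed, the log2 fold change of Hadhb became -0.59 (SE 0.22, limma unadjusted P = 0.0194, adjusted P = 0.418), and -0.38 (SE 0.19, limma adjusted P = 0.538) without VEH replicate 3. Per kilobase of the canonical transcript, Hadha stood 3.05- to 4.74-fold above Hadhb, and 1.09- to 2.05-fold above it with the pseudogene's reads added.

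For chains of short and medium length, the later steps in the matrix are carried by separate enzymes. Hadh, the matrix hydroxyacyl-CoA dehydrogenase (ENSMUSG00000027984, chromosome 3, 131027068 to 131065750), measured 40.5, 30.5, 64.8 and 33.3 CPM in VEH and 32.6, 38.3, 41.2 and 23.7 CPM in BAY mice. Acaa2, the matrix 3-ketoacyl-CoA thiolase (ENSMUSG00000036880, chromosome 18, 74912268 to 74939279), measured 33.4, 33.7, 63.2 and 36.0 CPM in VEH and 33.6, 38.3, 36.0 and 30.4 CPM in BAY mice. VEH replicate 3 was 1.95-fold above the median of the other 7 libraries for Hadh and 1.87-fold above it for Acaa2. The log2 fold changes of -0.28 (SE 0.23) for Hadh and -0.22 (SE 0.19) for Acaa2 became -0.06 (SE 0.18) and 0.00 (SE 0.11) without it.

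Within the ETF route the 3 genes did not share 1 pattern. Etfa, the alpha subunit of ETF (ENSMUSG00000032314, chromosome 9, 55361792 to 55419527), measured 29.1, 32.1, 55.2 and 32.9 CPM in VEH and 25.9, 27.1, 29.2 and 24.3 CPM in BAY mice. The lowest VEH level lay just under the highest BAY level, and the other 3 VEH levels were above every BAY level. Etfa was the 1 member with an unadjusted P under 0.05, with a log2 fold change of -0.44 (SE 0.18, limma P = 0.0273, adjusted P = 0.455), and the exact permutation test over the 70 assignments of 4 libraries to BAY gave a two-sided P of 0.0571. Without VEH replicate 3 the log2 fold change was -0.24 (SE 0.11, 95% interval -0.49 to 0.01, limma adjusted P = 0.525). The unadjusted P was also above 0.05 without BAY replicate 1, 2 or 4, with log2 fold changes of -0.43, -0.45 and -0.40. Etfb, the beta subunit (ENSMUSG00000004610, chromosome 7, 43093507 to 43107224), measured 51.3, 54.5, 66.1 and 58.1 CPM in VEH and 57.1, 61.0, 55.0 and 67.3 CPM in BAY mice. Its highest library was BAY replicate 4, VEH replicate 3 followed at 1.16-fold the median of the other 7, and the log2 fold change was 0.07 (SE 0.12, 95% interval -0.20 to 0.33), or 0.13 (SE 0.11) without that VEH library. Etfdh, the ETF-ubiquinone oxidoreductase that hands the electrons to ubiquinone (ENSMUSG00000027809, chromosome 3, 79511095 to 79536807), measured 32.7, 34.2, 60.7 and 37.1 CPM in VEH and 32.1, 35.6, 42.7 and 29.4 CPM in BAY mice. Its log2 fold change was -0.20 (SE 0.19) with all libraries and -0.00 (SE 0.14) without VEH replicate 3.

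Ratios inside a library set these 3 genes against each other. Per kilobase of canonical transcript, the Etfa to Etfb ratio was 0.292, 0.303, 0.430 and 0.292 in VEH and 0.234, 0.229, 0.273 and 0.186 in BAY mice. The groups did not overlap, with or without VEH replicate 3. The Etfdh to Etfa ratio was 0.807, 0.766, 0.789 and 0.809 in VEH and 0.889, 0.944, 1.05 and 0.871 in BAY mice, again without overlap, and here VEH replicate 3 lay among the other VEH libraries. Ratios of Hadha to Hadhb and of Acadm to Acadvl overlapped between the groups. These ratios were chosen with the values in view and are given as a description with no test. They restate the Etfa levels given above against Etfb and Etfdh, and do not tell which of the genes moved. The share of other gene pairs whose ratios do not overlap between the groups was not counted.

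**Figure D1:**
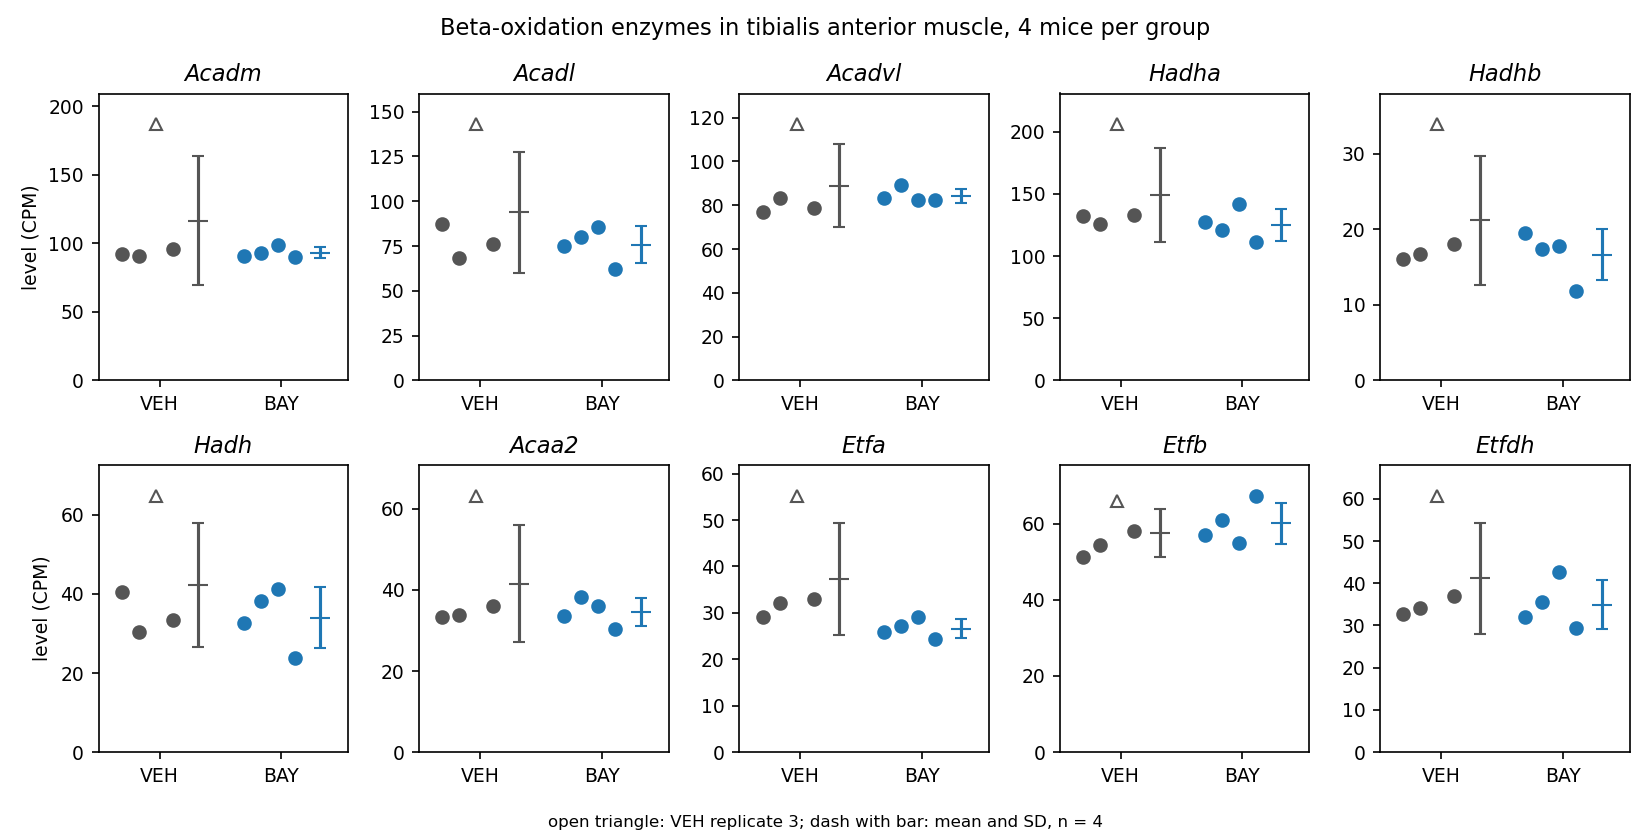
Level of each enzyme (vertical axis, CPM, from 0) in the 4 VEH and 4 BAY muscle libraries, with the mean and SD of each group. VEH replicate 3, the open triangle, is the highest of the 8 libraries in 9 of the 10 panels, and Etfb is the exception.

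Over the 10 members, 9 had a lower mean in BAY than in VEH mice, where 44.8% of all muscle genes did, and their median log2 fold change was -0.24. Of the 10 members, 1 had an unadjusted P under 0.05, against 9.79% of all genes, 0 passed after adjustment by limma (adjusted P from 0.455 to 0.916), and 0 had groups without overlap, against 5.73% of all genes. Without VEH replicate 3, the 10 enzymes divided into 6 lower and 4 higher, their median log2 fold change was -0.02, and 0 had an unadjusted P under 0.05, while 38.9% of all genes were lower, 9.79% had such a P and the median of all genes was 0.12. Across the 10 genes the 95% intervals of that fit ran from -0.49 at the lowest to 0.37 at the highest. The same library was the highest of the 8 for 9 of the 10 enzymes, by 1.16- to 2.03-fold over the median of the other 7 for the whole set and with a median of 1.88-fold. It was also the highest library for 42.7% of the 5559 genes that averaged 10 CPM or more, whose median excess was 0.20 on the log2 scale against 0.91 for the enzymes. At the other end, BAY replicate 4 was the lowest library for 8 of the 10, and without it the median log2 fold change was -0.15, with Hadh at -0.12 and Hadhb at -0.15. The share of all genes lowest in that library was not counted, so the 8 cannot be called particular to the enzymes. Summed over the enzymes, levels were 591, 570, 997 and 600 CPM in VEH and 576, 601, 631 and 532 CPM in BAY mice.

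**Figure D2:**
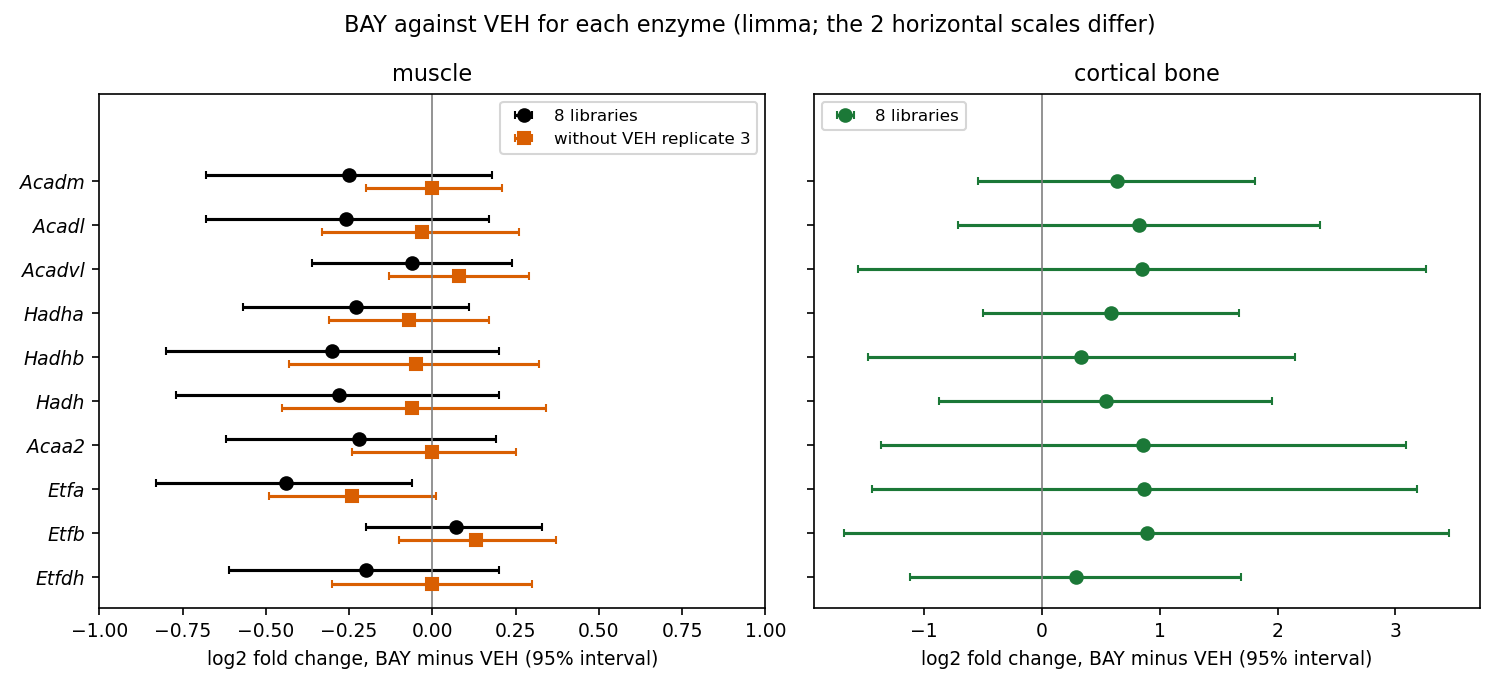
Log2 fold change of each enzyme, BAY minus VEH, with its 95% interval from limma, in muscle with all 8 libraries (circles) and without VEH replicate 3 (squares), and in cortical bone. Without that library the muscle values draw in around 0, from -0.24 for Etfa to 0.13 for Etfb, and every bone interval includes 0.

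Several marker lists had their highest summed level in VEH replicate 3 of muscle. All 9 adipocyte markers were measured, and their summed level was 416 CPM in that library and 48.4 to 66.9 CPM in the other VEH libraries and 52.2 to 62.7 CPM in BAY libraries. Adipoq, the fat cell hormone adiponectin, measured 16.4 CPM there and 0 to 1.05 CPM in the other 7. The 6 brown adipocyte markers summed to 111 CPM there, near the 83.7 to 106 CPM of the other VEH libraries and above the 64.4 to 94.4 CPM of BAY libraries. Among them Ucp1, the uncoupling protein of brown fat, measured 7.99 CPM there, 0.129 CPM in BAY replicate 3 and 0 in the other 6, while Cox8b and Cox7a1, which muscle also expresses, were highest in VEH replicate 1. The 9 markers of slow and oxidative fibers summed to 6550 CPM in VEH replicate 3, to 1720 to 2080 CPM in the other VEH libraries and to 2270 to 3200 CPM in BAY libraries, carried by Myh2, the myosin of fast oxidative fibers, at 5240 CPM against 808 to 1980 CPM. Myl3 and Mb did not follow, at 11.1 and 967 CPM there against up to 15.5 and 1140 CPM in BAY libraries. The remaining markers of that list were highest in VEH replicate 3. Of 10 osteoblast markers, 5 were in the muscle table and summed to 159 CPM in VEH replicate 3 against 32.0 to 54.0 CPM in the other 7, mostly from the collagen genes Col1a1 and Col1a2, and 5 of 6 osteoclast markers summed to 7.56 CPM there against 0.55 to 1.55 CPM. The osteoclast sum was mostly Acp5 at 5.18 CPM. Ctsk (1.08 CPM) and Mmp9 (0.864 CPM) were near the next highest libraries (0.837 and 0.815 CPM), and Ocstamp and Calcr were highest in other libraries. In contrast, the 12 fast fiber markers summed to 122000 CPM in VEH replicate 3, within the 108000 to 135000 CPM of the VEH group, and BAY replicate 4 stood above all others at 183000 CPM, where the other BAY libraries had 116000 to 135000 CPM. The part of fat or of fiber types in the enzyme levels of these libraries was not tested.

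Per kilobase of canonical transcript, Etfb stood highest in muscle, at a median of 64.5 CPM per kb over the 8 libraries (57.5 to 75.4). In VEH replicate 3, however, Acadm at 91.1 stood above Etfb at 74.0. Acadm followed by median at 45.0 (43.8 to 91.1), Acadvl at 37.5 (34.7 to 53.0), Hadha at 32.0 (27.4 to 51.0) and Acadl at 31.3 (24.8 to 57.3), and the last 3 overlapped across libraries. A lower group held Hadh at 20.0 (13.2 to 36.2), Acaa2 at 19.9 (17.4 to 36.1), Etfa at 16.8 (14.0 to 31.8) and Etfdh at 14.5 (12.2 to 25.1), each overlapping its neighbour. Hadhb stood lowest at 8.65 (5.79 to 16.7), a value that does not count the reads assigned to its pseudogene. The lowest place rests on leaving those reads out. With them added, Hadha stood 1.09- to 2.05-fold above Hadhb.

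The wider pathway was read from 60 further genes in 6 lists. In muscle 42 of the 60 were lower and 18 higher in BAY mice, where 44.8% of all genes were lower, the median log2 fold change was -0.14, and 5 lower and 1 higher had an unadjusted P under 0.05, where 9.79% of all genes had one. Without VEH replicate 3, 30 were lower and 30 higher, where 38.9% of all genes were lower, the median was 0.00, and 3 lower and 2 higher had such a P. After adjustment 0 of the 60 passed. The 7 genes of acyl-CoA activation and carnitine entry had a median of -0.20 and the 12 short-chain and auxiliary enzymes of -0.15, or -0.06 and -0.01 without VEH replicate 3, with 0 genes with all libraries at an unadjusted P under 0.05 in either list. The smallest P values there belonged to Acsl1, an acyl-CoA synthetase, at -0.38 (SE 0.23), Cpt1b, the muscle carnitine palmitoyltransferase of the outer membrane, at -0.20 (SE 0.14), Acad11 at -0.32 (SE 0.19) and Decr1, the dienoyl-CoA reductase needed for unsaturated chains, at -0.43 (SE 0.26). Without VEH replicate 3 these values were -0.11, -0.11, -0.12 and -0.12.

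Among the 10 fasting and PPAR target genes, Pdk4, the kinase that shuts off pyruvate dehydrogenase and spares glucose, measured 68.2, 94.2, 204 and 116 CPM in VEH and 57.5, 28.4, 51.1 and 48.5 CPM in BAY mice. The groups did not overlap, and the log2 fold change was -1.31 (SE 0.29, limma adjusted P = 0.23) and -1.02 (SE 0.23, limma adjusted P = 0.328) without VEH replicate 3. Cd36, a fatty acid uptake receptor, had a log2 fold change of -0.74 (SE 0.28, limma adjusted P = 0.426), or -0.47 (SE 0.25) without that library. In peroxisomal beta-oxidation, Scp2, whose products include a peroxisomal thiolase and a lipid carrier, measured 34.4, 32.9, 49.8 and 32.2 CPM in VEH and 24.3, 28.5, 25.3 and 21.2 CPM in BAY mice. Its groups did not overlap either, with a log2 fold change of -0.57 (SE 0.16, limma adjusted P = 0.304) and of -0.43 (SE 0.12, limma adjusted P = 0.331) without VEH replicate 3. In the tricarboxylic acid cycle, Idh3a, the catalytic subunit of isocitrate dehydrogenase, was at -0.35 (SE 0.14, limma adjusted P = 0.43) and Sucla2, a succinyl-CoA ligase subunit, at -0.41 (SE 0.19, limma adjusted P = 0.506), against -0.24 (SE 0.11) and -0.18 (SE 0.11) without VEH replicate 3. Of the receptors, Rxra, the common partner of the PPARs, was at 0.27 (SE 0.13, limma adjusted P = 0.507) and Ppara, the PPAR that drives fat oxidation in fasting, at -0.45 (SE 0.28), against 0.30 (SE 0.13) and -0.18 (SE 0.23) without VEH replicate 3. Of the 6 genes with an unadjusted P under 0.05, Pdk4 and Scp2 kept it with any 1 library left out. Idh3a lost it without BAY replicate 1 (-0.32), Cd36 without VEH replicate 3 or BAY replicate 4 (-0.47 and -0.46), Rxra without any of 5 libraries, VEH replicates 1 and 4 and BAY replicates 1, 2 and 4 (0.20 to 0.29), and also under 8 of the 9 other settings tried, all but array weights (0.21 to 0.28), and Sucla2 without any of 6, all but VEH replicates 2 and 4 (-0.45 to -0.18). Idh3a, Cd36 and Sucla2 also lost it without the trend in the spread, Cd36 (-0.49) and Sucla2 (-0.27) with array weights, and Sucla2 with the replicate number as a block. The remaining members of these 4 lists had an unadjusted P above 0.05 with all libraries. Groups without overlap were found for 4 of the 60 genes, against 5.73% of all genes, namely Pdk4, Scp2, Idh3a and Suclg1, another succinyl-CoA ligase subunit, at -0.23 (SE 0.12), or -0.14 (SE 0.09) without VEH replicate 3. The 5 genes with an unadjusted P under 0.05 without VEH replicate 3 were Pdk4, Scp2 and Idh3a, lower, and Rxra and the acyl-CoA dehydrogenase relative Acad12, higher. Suclg1 and Acad12 are named because of these values.

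**Figure D3:**
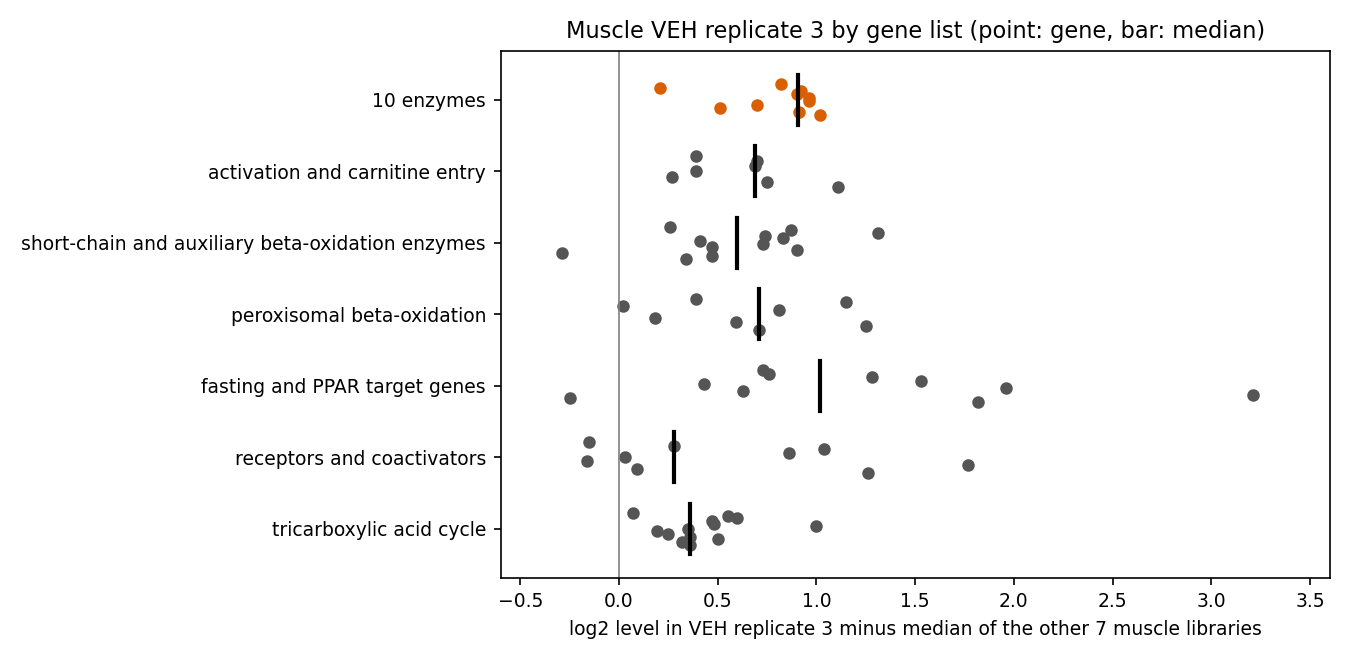
Log2 level in muscle VEH replicate 3 minus the median of the other 7 muscle libraries, for each gene (points) and each list (bars, medians). The 10 enzymes have a median of 0.91, the fasting and PPAR target genes of 1.02 and the tricarboxylic acid cycle genes of 0.36, and Acaa1b, at under 1 CPM in every library, lies beyond the axis.

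**Figure D4:**
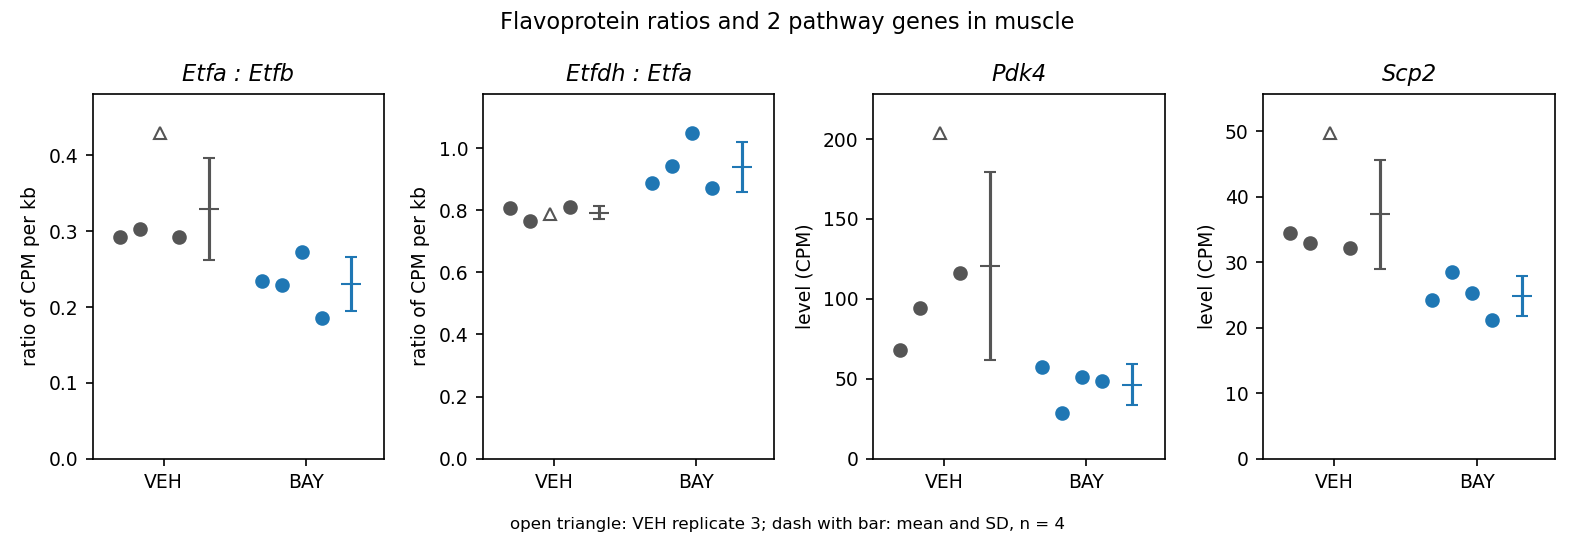
Ratio of Etfa to Etfb and of Etfdh to Etfa (CPM per kilobase over CPM per kilobase) and levels of Pdk4 and Scp2 (CPM) in the muscle libraries, with the mean and SD of 4 mice. In all 4 panels the VEH and BAY points do not overlap, and in the Etfdh to Etfa panel VEH replicate 3 (open triangle) sits with the other VEH libraries. The ratios were chosen with the values in view.

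In cortical bone the libraries differed in what they held. Summed fast fiber markers, all 12 measured, were 33400, 37100, 1280 and 97.7 CPM in BAY replicates 1 to 4 and 7930, 213, 71.0 and 37.9 CPM in VEH replicates 1 to 4. The 10 osteoblast and osteocyte markers summed to 1970, 1700, 22100 and 2240 CPM in BAY and to 7210, 1470, 30100 and 22300 CPM in VEH libraries. The 12 erythroid and neutrophil markers summed to 234 to 1410 CPM in BAY and 171 to 2520 CPM in VEH libraries. The 6 osteoclast markers summed to 90.6 to 1020 CPM in BAY and 124 to 997 CPM in VEH libraries. Olfactory receptor genes, taken here as a possible sign of reads from DNA, took 2.92% of the reads of VEH replicate 2, 2.24% of VEH replicate 4 and 3.517% of BAY replicate 4, against 0.051% to 1.2% of the others. Whether these reads came from DNA was not tested. The depth of the bone libraries was also uneven, and a value of 3 reads ranged from 0.432 to 3.225 CPM. Genes of the mitochondrial genome took from 2.4% (BAY replicate 4) to 41.8% (VEH replicate 1) of the bone reads. In muscle their share ran from 13.9% (BAY replicate 4) to 30.3% (VEH replicate 1). The total behind CPM includes these reads, and their part in the levels was not tested.

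All 10 enzymes had a higher mean in bone of BAY mice, as did 80.9% of all bone genes, with log2 fold changes from 0.29 for Etfdh to 0.89 for Etfb. Their median was 0.73 and that of all genes 0.84, but the order of the 2 turned when single libraries were left out, to 0.85 against -0.09 without VEH replicate 1, 0.79 against 0.76 without VEH replicate 3 and 0.95 against 0.55 without BAY replicate 4, and it was 0.50 against 0.03 with quantile normalization. The order also turned with pseudocounts of 1 CPM (0.65 against 0.4) and 0.1 CPM (0.73 against 0.7). When each library was centred on its median the enzymes were 6 lower and 4 higher with a median of -0.12, while 49.5% of all genes were higher. Of the 10 enzymes, 0 had an unadjusted P under 0.05, against 0.64% of all genes, limma adjusted P ran from 0.887 to 0.928, and groups without overlap were found for 0 of the 10 and 0.406% of all genes. Standard errors of 0.50 to 1.19 left 95% intervals as wide as -1.68 to 3.46 for Etfb, so changes of the size seen in muscle were not detectable at this depth and spread. Whether muscle and bone differed in their response was not tested, since the tables were normalized separately.

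Acadm measured 31.6, 28.5, 18.1 and 32.8 CPM in bone of VEH and 48.7, 59.6, 27.0 and 39.8 CPM in bone of BAY mice, a log2 fold change of 0.64 (SE 0.55). Hadha measured 39.8, 71.8, 43.6 and 80.8 CPM in VEH and 105, 85.2, 73.8 and 77.4 CPM in BAY mice, a log2 fold change of 0.59 (SE 0.50). BAY replicate 3 lay within the VEH range for both genes, BAY replicate 4 did so for Hadha, and the other BAY levels were above every VEH level. Acadvl measured 23.2, 1.84, 12.6 and 15.3 CPM in VEH and 47.6, 50.4, 16.9 and 2.15 CPM in BAY mice, the highest levels being those of the libraries with the most fast fiber RNA. BAY replicates 1 and 2 were the highest libraries for 7 of the 10 enzymes, and the share of all bone genes highest there was not counted. The bone levels of Hadhb are uncertain for the same reason as in muscle, since Hadhb-ps held 0.304 to 3.32 times the CPM of Hadhb, the most in BAY replicate 2 at 24.2 against 7.27 CPM.

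VEH replicate 2 and BAY replicate 4 of bone split the enzymes. Acadvl, Acaa2, Etfa and Etfb had 1 to 3 reads in each of them. Hadha, Hadhb, Hadh, Etfdh and Acadm had 24 to 78 reads in the same libraries, and Acadl had 6 and 10. Etfb thus measured 20.6, 0.921, 12.4 and 21.1 CPM in VEH and 28.2, 33.9, 28.5 and 2.15 CPM in BAY mice, whereas Etfdh measured 11.2, 48.7, 23.7 and 51.8 CPM in VEH and 28.5, 38.4, 23.1 and 59.1 CPM in BAY mice. These 2 libraries were at the bottom for Etfb and among the top 3 for Etfdh, and they had the largest shares of olfactory receptor reads. The longest exon of the canonical transcript spans 231 to 478 bases in the 4 enzymes nearly absent there and 387 to 1657 bases in the other 6. The part of DNA reads, if any, in these levels was not tested.

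**Figure D5:**
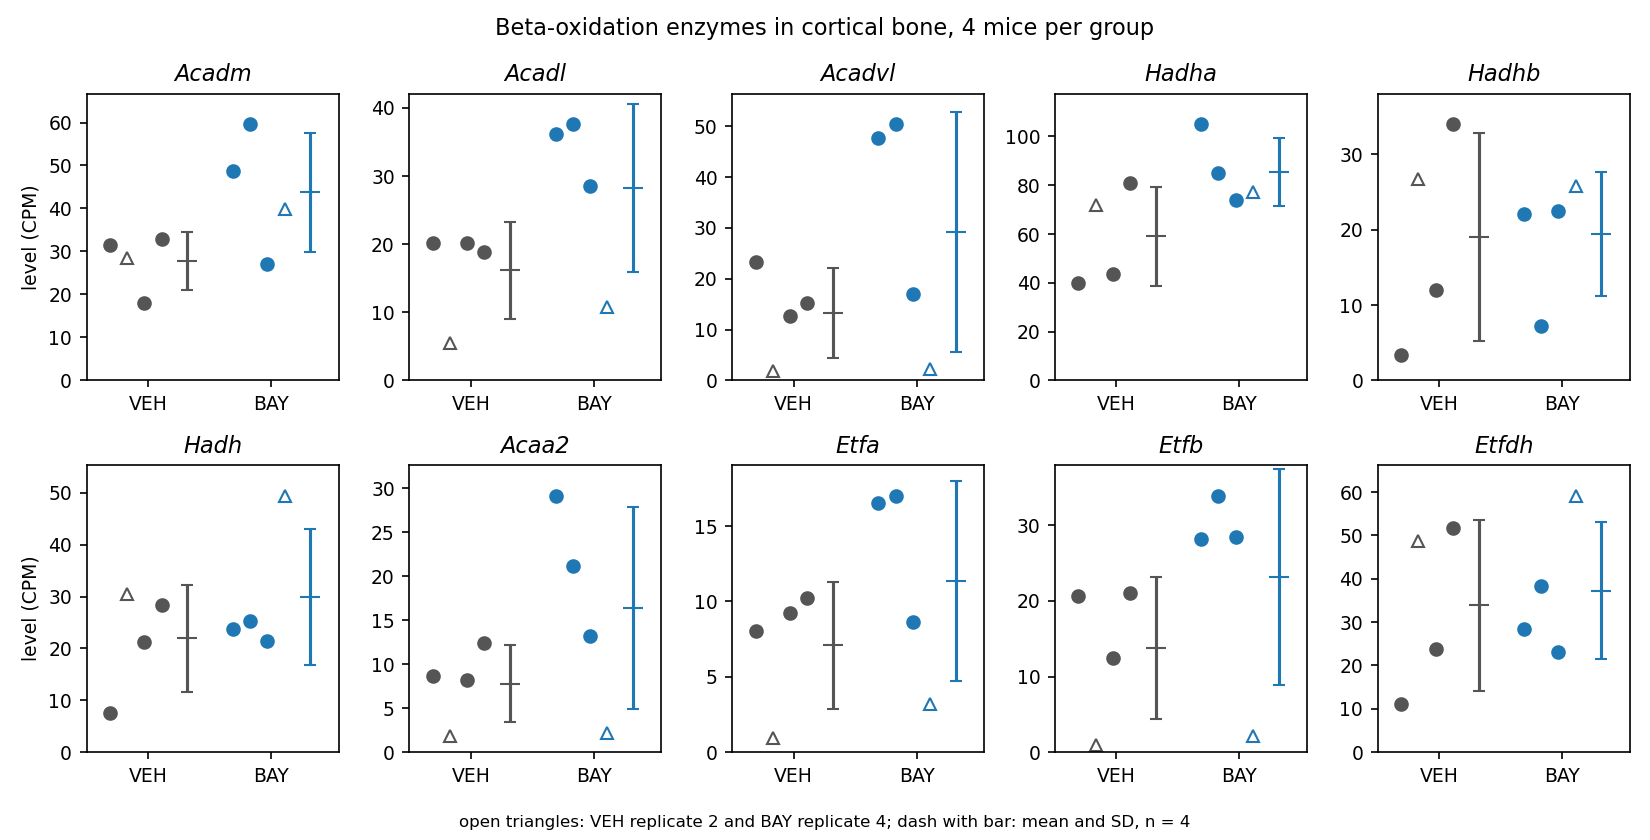
Level of each enzyme (vertical axis, CPM, from 0) in the 4 VEH and 4 BAY cortical bone libraries, with the mean and SD of each group. VEH replicate 2 and BAY replicate 4, the open triangles, lie at or near 0 for Acadvl, Acaa2, Etfa and Etfb and in the upper range for Hadh and Etfdh.

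Without the 3 bone libraries richest in fast fiber RNA (BAY replicates 1 and 2 and VEH replicate 1), the log2 fold changes ran from -0.23 (SE 1.39) for Acadvl to 0.45 (SE 0.90) for Acadl, with 3 negative and 7 positive. Their median was 0.26, against 0.27 over all genes, of which 69.4% were higher and 0.606% had an unadjusted P under 0.05, as did 0 of the 10. Without the 3 libraries richest in olfactory receptor reads, the median was 0.90 against 2.05 over all genes, all 10 were higher, as were 87.7% of all genes, and 1 of the 10, Hadha, had an unadjusted P under 0.05, as did 14.7% of all genes (log2 fold change 1.06, SE 0.42, limma adjusted P = 0.315). That fit set VEH replicates 1 and 3 against BAY replicates 1 to 3. Their olfactory receptor shares still differed by treatment, at 0.051% and 0.544% in VEH against 1.2%, 1.026% and 1.038% in BAY libraries. It also kept BAY replicates 1 and 2, the libraries with the most fast fiber RNA. Of the 60 further pathway genes in bone, 54 were higher and 6 lower in BAY mice, where 80.9% of all genes were higher, their median was 0.57 against 0.84 over all genes, and 0 had an unadjusted P under 0.05 in limma with all libraries, against 0.64% of all genes.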

How the data were processed

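Per the labels and methods, the authors isolated total RNA (TRIzol for bone, a Maxwell kit for muscle), aligned trimmed reads with STAR (version 2.7.8a) to mm39, counted them on Ensembl genes by the E/M method of Partek, and deposited values that are log2 of CPM plus an offset, which the lowest values put at 0.0001 in bone and 0.0004 in muscle. Samples were grouped by tissue and treatment from their labels. For each tissue, limma (version 3.58.1; R 4.3.3) lmFit and eBayes with a trend were run on the deposited log2 values of all genes, two-sided, unfiltered and without covariates, and P values were Benjamini-Hochberg adjusted over all genes of the tissue. With offsets this small, fold changes of genes with libraries at 0 are inflated. Single members were also compared by exact permutation over 70 assignments, with a smallest possible P of 0.0286.

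Reads were recovered from steps between low values, of which 81.5% to 88.6% up to 50 reads were whole within 0.02. A floor of 3 reads covers counting error only. Transcript lengths and starts came from GENCODE M39, which matched 99.4% of muscle and 98.9% of bone genes. Python (version 3.11.15) was used for other steps, and the fits were tested on simulated data. The members and gene lists were chosen with earlier results of these data known. Named pathway genes were those with an unadjusted P under 0.05 in muscle, or the 2 smallest P values of a list with fewer than 2. A single result that this rule takes is not reported here. Alternatives were pseudocounts of 1 and 0.1 CPM, genes averaging 1 CPM or more, median centring, quantile normalization, no trend, array weights, voom on recovered reads, a replicate block and each library left out. Leaving out the bone libraries richest in muscle fiber RNA or in olfactory receptor reads, and summing Hadhb with Hadhb-ps, were added after seeing the data.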

Additional observations from a re-analysis of the deposited data

Results flagged for a closer look

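Within groups of 4 libraries, 10 of 40 sets of member levels held a library whose gap to its neighbor exceeded Dixon's 95% critical share of the group's range on the log2 scale, where chance alone marks about 1 in 20 such groups. Members of 1 library share their source, so these sets are not independent. In muscle, VEH replicate 3 was set apart upward for Acadm (a gap of 0.922 of the range), Hadha (0.885), Acaa2 (0.882) and Hadhb (0.853), and BAY replicate 2 was set apart upward for Acadvl (0.852), where the 4 levels spanned 0.11 on the log2 scale. In bone, VEH replicate 2 was set apart downward for Acadl (0.95), Etfa (0.902) and Etfb (0.83), BAY replicate 4 was set apart downward for Etfb (0.933), and BAY replicate 2 was set apart downward for Hadhb (0.878), in a library where Hadhb-ps held 3.32 times the CPM of Hadhb. How reads were divided between Hadhb and Hadhb-ps was not tested. The bone levels of Etfa and Etfb concerned rest on 1 or 2 reads.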

How the results depend on the processing

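With 4 mice per group the precision is limited by the spread between mice in muscle and also by depth in bone, where 7 of 80 member levels rest on fewer than 3 reads. In muscle the count of members with an unadjusted P under 0.05, 1 by the main test, was 2 with median centring, quantile normalization or Hadhb summed with Hadhb-ps and 0 without the trend or with that sum and without VEH replicate 3. It ranged from 0 to 1 over single libraries left out, and was 0 without VEH replicate 3 or BAY replicate 1, 2 or 4. The count of other pathway genes in muscle, 6, was 14 of 60 with median centring, 13 with quantile normalization and 2 without the trend, where 11.6%, 12% and 7.84% of all genes had such a P, and 3 to 8 over libraries left out. The median log2 fold change of the muscle members lay between -0.32 and -0.02 over libraries left out, and was -0.11 with array weights. Acadvl turned from -0.06 to 0.08 without VEH replicate 3 (range over libraries left out -0.12 to 0.08). Replicate numbers belong to different mice and same-numbered libraries did not deviate together (correlations -0.09 to 0.01 in muscle and -0.11 to 0.19 in bone). With the replicate block, 1 muscle member (Etfa) and 6 other pathway genes had an unadjusted P under 0.05 and the members' median was -0.24. The 6 were all lower, with Decr1 and Fabp3 in and Rxra and Sucla2 out. In bone the block gave 0, 0 and a median of 0.73.

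In bone, median centring moved the members' median from 0.73 to -0.12 and turned Acadm (-0.21), Acadl (-0.03), Hadha (-0.26), Hadhb (-0.52), Hadh (-0.31) and Etfdh (-0.56), against a shift of the median of all genes from 0.84 to -0.01, and quantile normalization turned Hadhb (-0.26). Over libraries left out the members' median lay between 0.45 and 0.95, the count of members with an unadjusted P under 0.05 stayed at 0 and that of other pathway genes ranged from 0 to 2. Hadhb ranged from -0.34 to 0.76 and Etfdh from -0.16 to 0.57, both negative without VEH replicate 1, and Etfb from -0.17 to 1.84, negative without VEH replicate 2. Without the 3 libraries richest in muscle fiber RNA, Acadvl (-0.23), Acaa2 (-0.10) and Etfdh (-0.08) turned. Without the 3 richest in olfactory receptor reads, 1 member and 10 of the 60 other pathway genes had an unadjusted P under 0.05, as did 14.7% of all genes. The cause of these changes was not tested. Array weights were not run in bone, where the fit did not converge.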

Other observations

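Among 5549 further muscle genes averaging 10 CPM or more, those whose log2 profile over the 8 libraries lay nearest to the mean profile of the 10 enzymes were Pdlim5, a Z-disc protein (root mean square difference 0.051), the pseudogene Rps7-ps3 (0.063), Acta2, the actin of smooth muscle (0.066), Gid4, a substrate receptor of a ubiquitin ligase (0.067), and Tnfrsf19, a receptor of the tumor necrosis factor family (0.069). The enzymes themselves lay at 0.052 (Acaa2) to 0.264 (Etfb). Pdlim5 measured 78.2, 79.3, 142 and 80.3 CPM in VEH and 75.7, 82.8, 89.4 and 64.5 CPM in BAY mice. The likeness was measured over 8 libraries and follows mainly from a high level in VEH replicate 3 and a low level in BAY replicate 4.

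In bone, 2 of the 60 further pathway genes had groups without overlap, where 0.406% of all genes did. Decr1 measured 7.05, 7.36, 8.15 and 10.9 CPM in VEH and 13.4, 13.2, 12.2 and 11.8 CPM in BAY mice (log2 fold change 0.62, SE 0.71), and Acat1, the mitochondrial acetoacetyl-CoA thiolase, measured 12.7, 14.7, 19.1 and 20.4 CPM in VEH and 30.4, 26.5, 28.5 and 22.6 CPM in BAY mice (0.71, SE 0.57). Both were named after their values were seen. The median over all bone genes was 0.84 with all libraries and -0.09 without VEH replicate 1.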
